A study of Mus musculus with 30 samples.

Results

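The duodenum of C57BL/6 mice on a fructose diet was compared with that of C57BL/6 mice on a corn starch control diet by RNA sequencing of poly-A selected RNA. The comparison takes, by tissue and diet in the sample titles, 5 fructose and 5 control libraries out of the 30 of the study, which also covers liver and a dextrose (D-glucose) diet. All groups share the strain; the labels used here do not give the age or sex of the mice, the amount or duration of the diets, or whether each library is a separate mouse, so p-values measure the spread between these libraries. The 5 duodenum libraries of the dextrose diet serve to test whether a difference is also seen between the sugars.

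The duodenum is the first stretch of small intestine to meet dietary sugar. Fructose enters the enterocyte through SLC2A5 (GLUT5) in the brush border, is phosphorylated by ketohexokinase, split and fed into the triose pool, from which it can go on to pyruvate and lactate or, through fructose bisphosphatase and glucose 6-phosphatase, to glucose. Glucose instead enters through the sodium-coupled carrier SLC5A1. Sugar-sensing transcription in gut and liver is attributed largely to ChREBP (gene Mlxipl), which binds the carbohydrate response element of genes such as Pklr.

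The upstream sequence of 2 sugar genes is shown because each rose on fructose and holds 1 of the 2 motifs searched, an E box or the carbohydrate response element, in the 250 bases before an annotated start (RefSeq, GRCm38.p6). Khk lies at chr5:30921309-30921558 (plus strand) and holds 1 E box (CACGTG, a core shared by many basic helix-loop-helix factors), in capitals. Pklr has 2 annotated windows, and the 1 shown, at chr3:89136373-89136622 (plus strand), holds 1 match to the carbohydrate response element, in capitals.
Khk: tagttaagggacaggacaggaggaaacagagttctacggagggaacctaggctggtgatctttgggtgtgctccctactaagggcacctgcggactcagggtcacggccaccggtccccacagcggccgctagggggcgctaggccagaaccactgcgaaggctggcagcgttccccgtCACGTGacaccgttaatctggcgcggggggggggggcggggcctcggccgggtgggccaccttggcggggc
Pklr: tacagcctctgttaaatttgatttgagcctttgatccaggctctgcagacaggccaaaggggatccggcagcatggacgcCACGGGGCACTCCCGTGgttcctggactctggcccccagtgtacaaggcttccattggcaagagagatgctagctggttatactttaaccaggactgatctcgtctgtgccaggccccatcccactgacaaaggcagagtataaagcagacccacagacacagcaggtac
Searched on both strands, the E box was found in 6.02% of all 32851 windows of this length and the carbohydrate response element in 0.0974%. Among genes of hexose transport, fructolysis, gluconeogenesis and glycolysis that rose, 21 have a window, 3 (Khk, Ldha and Pcx) hold an E box and 1 (Pklr) holds the carbohydrate response element. Per window the E box was in 9.38% of the 32 windows of these genes, in 7.99% of those of all genes tested and in 9.14% of those of all genes higher on fructose. Gpd1 has no window in the tables used. A match describes letters in this window and is not a measured binding site.

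Expression is given as counts per 1000000 counted reads of a library, TMM-scaled (CPM). Where a gene has 2 ranges and the second names no diet, the second is that of the controls. Differences are given as log2 fold changes with their standard error (SE), fructose against control. They were tested by edgeR's quasi-likelihood test with Benjamini-Hochberg adjustment over 13884 genes. At an adjusted p under 0.05, 932 genes differed (6.71% of those tested), 557 of them higher on fructose (4.01%) and 375 lower (2.70%). The rises had a median log2 fold change of 0.71 and the falls one of -0.66, against -0.02 over all genes, and 171 rises and 95 falls reached at least 2-fold. In 694 of the 932 the 5 fructose libraries did not overlap the 5 controls; over all genes 4.15% had every fructose library above and 2.92% below every control. Of the genes called, 280 also differed from dextrose in the same direction, 184 above and 96 below, and 6 differed in the opposite direction, in a comparison where 3.64% of all genes were called, 2.17% higher and 1.48% lower. Dextrose against control called 2.25%. The shares of 4.01% higher and 2.70% lower over all genes are to be set beside the edgeR counts for gene lists below. For edgeR counts against dextrose the shares are 2.17% and 1.48%. These shares do not apply at an unadjusted p under 0.05, a cut that at least 6.71% of all genes passed. The exact share at that cut is not given. Nor do they apply to other tools: over all genes DESeq2 called 741 higher and 517 lower, and voom 866 and 600. Upper-quartile scaling turned the split from 557 higher and 375 lower to 480 and 508, and limma on log2(FPKM + 1) to 436 and 641.

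**Figure D1:**
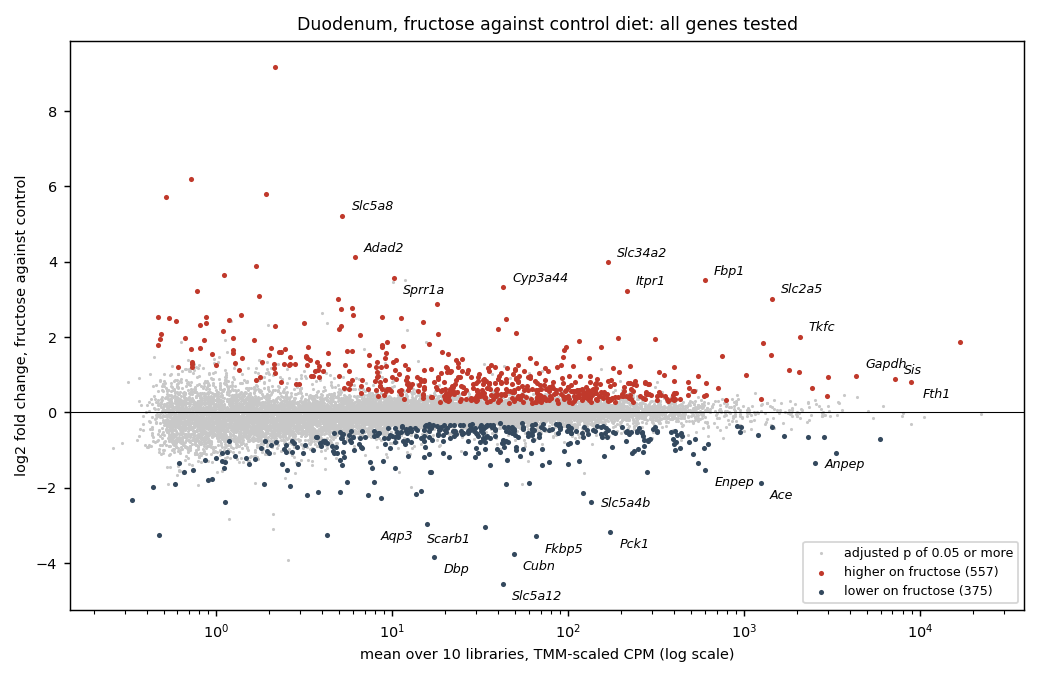
Each point is 1 of 13884 genes, with its mean over the 10 libraries (TMM-scaled CPM, log scale) on the x axis and its log2 fold change, fructose against control, on the y axis. The 557 genes higher on fructose (red) and 375 lower (dark blue) include Slc5a12 as the lowest point at -4.55.

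Markers of the duodenal epithelium were detected on both diets: the summed CPM of 12 enterocyte genes was 15330 to 18790 on fructose and 15510 to 19100 on control, and by edgeR 0 of them passed (1 was lower at an unadjusted p under 0.05, and voom called 1 lower). Total counts were 16519312 to 18699454 on fructose and 15656136 to 16916063 on control. Transcripts typical of pancreas or liver stood out in 3 libraries. Pancreatic acinar genes summed to 157 CPM in control 3 and 77.8 CPM in fructose 3, against at most 39.9 CPM in the other 8. Hepatocyte genes summed to 182 CPM in control 5 and at most 0.536 CPM elsewhere. Without these 3 libraries 329 genes were called, 325 of them also called with all libraries. Where a gene is said not to be called without control 3, control 5 and fructose 3, all 3 were left out together. Fewer libraries also weaken the test. A call lost in that fit therefore does not show that pancreas or liver transcripts made it, and its cause was not tested.

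Genes of fructose uptake and breakdown rose together. Of 5 tested fructolysis genes 3 rose and 0 fell, with a median log2 fold change of 1.00. Slc2a5 (ENSMUSG00000028976), the fructose carrier, stood at 2354, 2796, 2636, 2777 and 2241 CPM in fructose libraries 1 to 5 and 268, 410, 333, 232 and 339 CPM in control libraries 1 to 5. Every fructose library was several times the highest control, a log2 fold change of 3.02 ± 0.19 (SE, adjusted p = 4.39e-08). Khk (ENSMUSG00000029162), ketohexokinase, which commits fructose to breakdown, stood at 2324, 2646, 2304, 2769 and 2262 CPM in fructose libraries 1 to 5 and 1349, 1108, 1074, 1071 and 1045 CPM in control libraries 1 to 5, a log2 fold change of 1.12 ± 0.11 (SE, adjusted p = 2.96e-06). Control 1 was the highest control and still below the lowest fructose library.

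Tkfc, the triokinase that phosphorylates glyceraldehyde, measured 3272, 3843, 3574, 3233 and 2690 CPM in fructose libraries 1 to 5 and 1022, 829, 792, 641 and 829 CPM in control libraries 1 to 5, a rise of 2.01 ± 0.12. Gpd1, which turns dihydroxyacetone phosphate into glycerol 3-phosphate, rose by 0.99 ± 0.11, with 1251 to 1467 CPM in the fructose libraries, against 548 to 782 CPM. None of Slc2a5, Khk, Tkfc and Gpd1 overlapped between the diets.

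Tpi1 and Glyctk did not pass the test. Tpi1, triose phosphate isomerase, was at 1364 to 1547 CPM in the fructose libraries, against 941 to 1483 CPM and Glyctk, glycerate kinase, at 6.69 to 11.8 CPM in the fructose libraries, against 5.500 to 10.6 CPM. Together the 5 fructolysis genes took 8630.3 ± 619.9 CPM (SD, n = 5) on fructose, 3890.9 ± 508.3 on control and 4922.3 ± 392.2 on dextrose. On fructose that was 0.863% of the CPM of a library. All 3 that rose over control were also above dextrose, Tkfc by 1.32 ± 0.12 (adjusted p = 5.45e-06), Khk by 0.67 ± 0.10 (adjusted p = 0.00105) and Gpd1 by 0.86 ± 0.11 (adjusted p = 0.000146). Slc2a5, counted with the transporters, was above dextrose by 2.93 ± 0.19 (adjusted p = 1.62e-07).

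**Figure D2:**
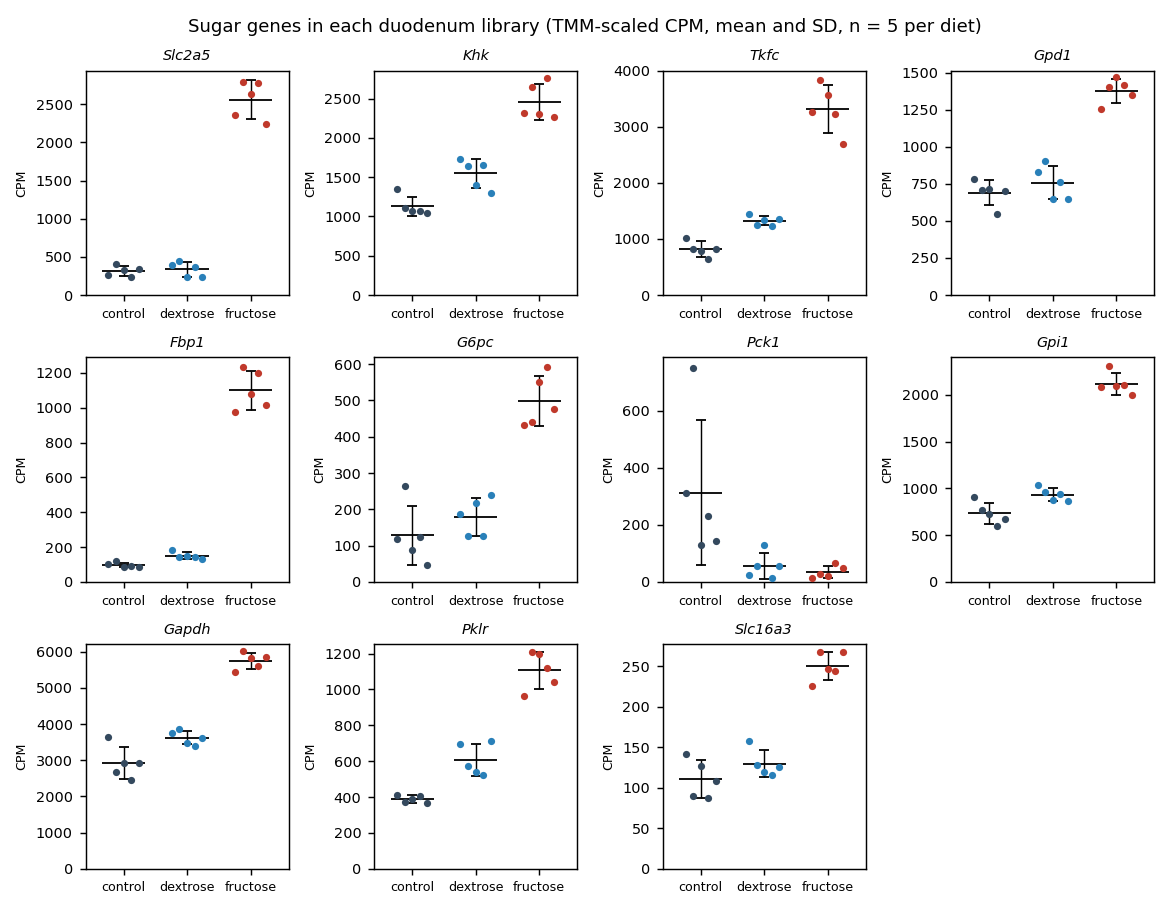
Panels give 11 sugar genes as TMM-scaled CPM on axes that start at 0, with 1 point for each of 5 libraries per diet, a line at the mean and a bar of 1 SD. The fructose libraries sit above every control and dextrose library in all panels but Pck1, where control reaches 750 CPM and fructose at most 67.3 CPM.

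Of 11 tested hexose transporters 2 rose and 1 fell, with a median log2 fold change of -0.11. Slc2a1 (GLUT1), a facilitative glucose carrier, rose by 0.84 ± 0.14 (SE, adjusted p = 0.000742), from 8.38 to 12.9 CPM on control to 15.3 to 24.1 CPM on fructose. Slc5a4b, a member of the sodium-glucose cotransporter family, fell by 2.38 ± 0.42 on the log2 scale (adjusted p = 0.00354). It measured 31.5, 43.6, 34.2, 48.5 and 61.7 CPM on fructose and 441, 322, 116, 130 and 130 CPM on control. Controls 1 and 2 were the highest, and the lowest control was still above every fructose library; its dextrose libraries were at 18.3 to 59.6 CPM. Its near copy Slc5a4a was at 93.4 to 169 CPM in the fructose libraries, against 80.1 to 168 CPM and did not pass, and reads shared between the pair could be split by the counting.

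Per length, in the authors' FPKM, the order of the transporters differed between the diets. On control the means were 1245 for Slc5a1, 320 for the basolateral carrier Slc2a2 and 246 for Slc2a5. On fructose Slc2a5 stood first at 1907 FPKM, above Slc5a1 at 1216 and Slc2a2 at 294. Slc5a1 and Slc2a2 overlapped between the diets, with log2 fold changes of 0.04 ± 0.17 and -0.05 ± 0.18 whose sign turned when some single libraries were left out.

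Glucose-forming genes rose at both phosphatase steps and fell at the entry from oxaloacetate. Of 8 tested gluconeogenesis genes 4 rose and 1 fell. Fbp1 (ENSMUSG00000069805), fructose bisphosphatase, stood at 975, 1231, 1079, 1197 and 1017 CPM in fructose libraries 1 to 5 and 102, 117, 86.1, 88.5 and 87.00 CPM in control libraries 1 to 5, a rise of 3.52 ± 0.12 (SE, adjusted p = 6.65e-12), the smallest p of any gene tested. G6pc, the catalytic subunit of glucose 6-phosphatase, stood at 433, 442, 552, 591 and 476 CPM in fructose libraries 1 to 5 and 117, 264, 88.4, 123 and 47.1 CPM in control libraries 1 to 5, a rise of 1.96 ± 0.35 (SE, adjusted p = 0.00325). Its lowest fructose library was above control 2, the highest control. Slc37a4, which carries glucose 6-phosphate to that enzyme, rose by 0.72 ± 0.10, and Pcx, pyruvate carboxylase, by 0.33 ± 0.09 (adjusted p = 0.0391). Pcx was not called without control 3, control 5 and fructose 3 (adjusted p of 0.0537). Pcx was not called in 11 of 15 fits without 1 library (adjusted p of up to 0.0974).

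Pck1, the cytosolic phosphoenolpyruvate carboxykinase, went the other way. It measured 13.1, 26.4, 19.9, 67.3 and 47.8 CPM in fructose libraries 1 to 5 and 311, 750, 130, 230 and 143 CPM in control libraries 1 to 5, a log2 fold change of -3.17 ± 0.70 (SE, adjusted p = 0.0134). Control 2 was far above the other controls, yet the lowest control stayed above the highest fructose library, and the change was -2.55 without control 2. On dextrose Pck1 was at 12.9 to 130 CPM, and its fructose against dextrose difference was -0.67 ± 0.65 (adjusted p = 0.693). The other isozymes Fbp2, G6pc3 and Pck2 did not pass, with log2 fold changes of -0.04 ± 0.11, 0.13 ± 0.16 and -0.15 ± 0.27.

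Glycolytic genes rose from the first isomerase to lactate dehydrogenase: 13 of 24 tested genes rose and 0 fell, with a median log2 fold change of 0.52, and 10 of the 13 were also above dextrose. In order of the pathway, Gpi1 (glucose phosphate isomerase) rose by 1.53 ± 0.10, Pfkl (liver phosphofructokinase) by 0.92 ± 0.16 and Gapdh (glyceraldehyde phosphate dehydrogenase) by 0.98 ± 0.10. Further down, Pgk1 (phosphoglycerate kinase) rose by 0.79 ± 0.08, Eno1 (enolase) by 1.06 ± 0.09, Pklr (pyruvate kinase of gut and liver) by 1.51 ± 0.10 and Ldha (lactate dehydrogenase A) by 0.93 ± 0.10. Gapdh stood at 5451, 6024, 5816, 5616 and 5846 CPM in fructose libraries 1 to 5 and 3630, 2678, 2917, 2455 and 2929 CPM in control libraries 1 to 5. Gpi1 ran at 2000 to 2314 CPM in the fructose libraries, against 593 to 904 CPM, so neither gene overlapped between the diets.

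Hexokinases did not pass by edgeR: Hk2 was at 12.3 to 24.9 CPM in the fructose libraries, against 8.01 to 13.4 CPM, a log2 fold change of 0.76 ± 0.25 (SE, adjusted p = 0.0877), and Hkdc1 at 446 to 594 CPM in the fructose libraries, against 365 to 515 CPM. Hk2 passed with DESeq2 and without dextrose 1. Summed over the 24 genes, glycolytic RNA was 22662 ± 930 CPM (SD, n = 5) on fructose, 12399 ± 1720 on control and 15629 ± 742 on dextrose. Slc16a3 (MCT4), an exporter of lactate, rose by 1.18 ± 0.13 (SE, adjusted p = 1.35e-05), with 226 to 268 CPM in the fructose libraries, against 87.3 to 141 CPM, and was above dextrose by 0.95 ± 0.13 (adjusted p = 0.000191). Slc16a1 (MCT1) rose by 0.56 ± 0.14. Ppp1r3g, a regulatory subunit that brings protein phosphatase 1 to glycogen, rose by 3.09 ± 0.40 (SE, adjusted p = 8.98e-05) at low level, 2.15 to 3.81 CPM in the fructose libraries, against 0.119 to 0.4502 CPM. Slc16a1 was not called without control 3, control 5 and fructose 3 (adjusted p of 0.116). Slc16a1 was not called without fructose 1 or fructose 2 (adjusted p of up to 0.0698).

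The sugar and sterol sensors gave 0 calls of 11 by edgeR, with a median of 0.06; at an unadjusted p under 0.05 there were 2 higher and 1 lower, and DESeq2 called 1 higher and voom 2. Mlxipl, the gene of ChREBP, measured 355, 407, 368, 454 and 327 CPM in fructose libraries 1 to 5 and 229, 168, 185, 401 and 207 CPM in control libraries 1 to 5, a log2 fold change of 0.68 ± 0.20 (SE, adjusted p = 0.0561). Control 4 lay within the fructose range and the other controls below it, and without control 4 the change was 0.95 (adjusted p = 0.000688). It also passed with DESeq2, with voom weights and without dextrose 5. Txnip, a ChREBP target that inhibits thioredoxin, was at 81.99 to 120 CPM in the fructose libraries, against 91.3 to 166 CPM and Srebf1, the gene of SREBP-1, at 96.3 to 124 CPM in the fructose libraries, against 99.3 to 156 CPM. Among 15 genes of the pentose phosphate and polyol routes 1 rose and 1 fell, where 4.01% of all genes rose and 2.70% fell. H6pd, the hexose 6-phosphate dehydrogenase of the endoplasmic reticulum, rose by 1.07 ± 0.23. Dcxr, a xylulose reductase, fell by 0.77 ± 0.13 on the log2 scale. H6pd was not called without control 3, control 5 and fructose 3 (adjusted p of 0.108).

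**Figure D3:**
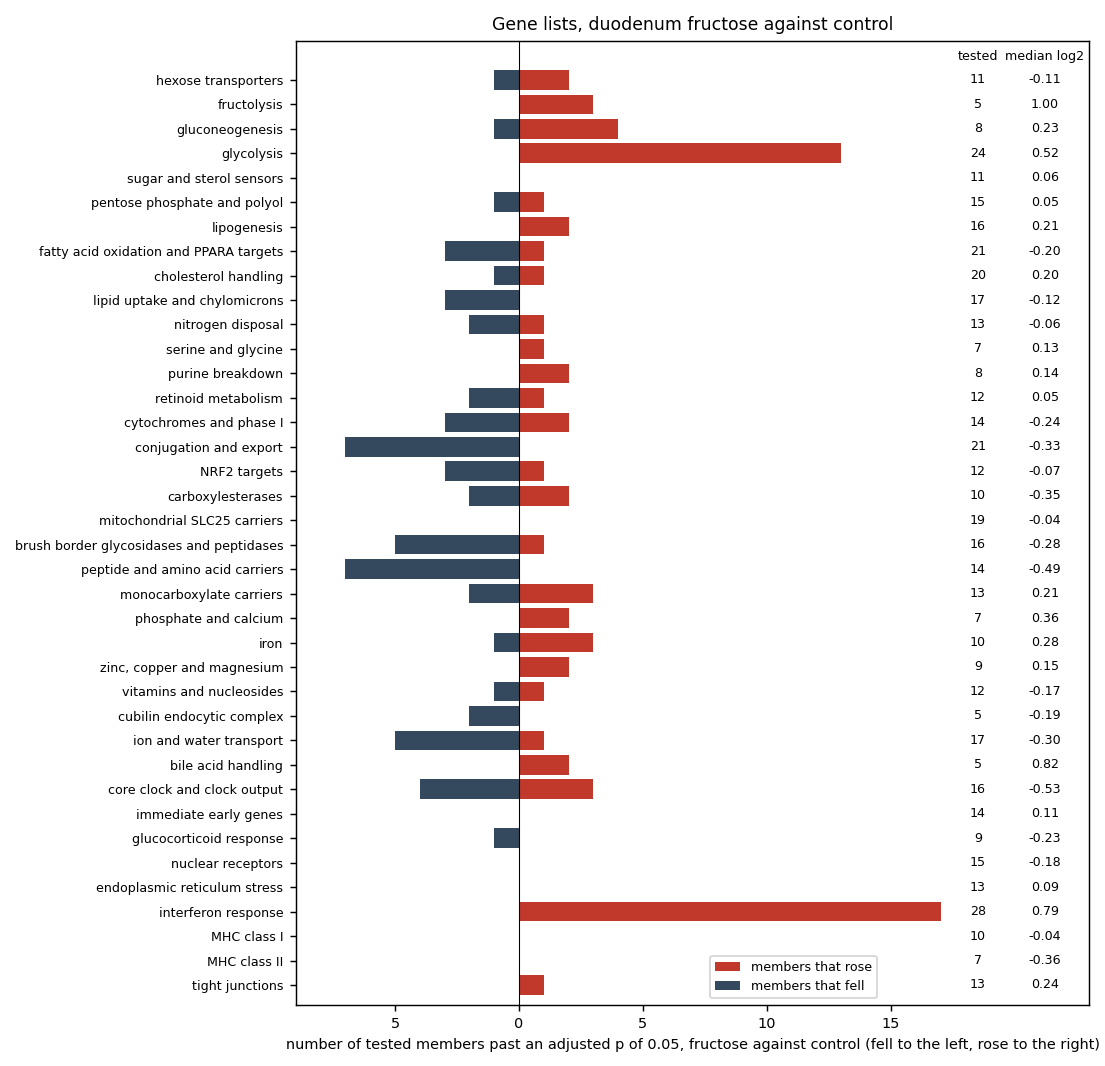
Bars count the tested members of 38 gene lists that rose (red, to the right) or fell (dark blue, to the left) on fructose, with the number tested and the median log2 fold change of the list at the right. Interferon response (17 of 28) and glycolysis (13 of 24) have the longest bars to the right, and conjugation (7 of 21), peptide and amino acid carriers (7 of 14), brush border enzymes (5 of 16) and ion and water transport (5 of 17) the longest to the left.

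Of 16 tested lipogenesis genes 2 rose and 0 fell, where 4.01% of all genes rose. Acaca, acetyl-CoA carboxylase, stood at 32.9, 37.4, 35.7, 25.5 and 13.8 CPM in fructose libraries 1 to 5 and 7.17, 8.03, 15.8, 6.64 and 10.2 CPM in control libraries 1 to 5, a rise of 1.60 ± 0.29 (SE, adjusted p = 0.00274), and fructose library 5 lay within the control range. Acss2, which makes acetyl-CoA from acetate, was called at 0.45 ± 0.13, a call lost in 9 of 15 fits that each left out 1 library. Fasn, fatty acid synthase, was at 27.6 to 95.7 CPM in the fructose libraries, against 18.2 to 85.3 CPM. Scd1, stearoyl-CoA desaturase, measured 77.05, 190, 5.56, 8.71 and 26.7 CPM on fructose and 0.566, 60.1, 230, 5.402 and 53.3 CPM on control. The 5 adipocyte markers summed to 29.6, 60.5, 1.07, 3.89 and 8.82 CPM in the same fructose libraries and to 0.126, 14.3, 41.5, 0.732 and 8.16 CPM in the same controls. Both were highest in fructose 1 and 2 and control 3 and lowest in control 1; the part of fat tissue in Scd1 was not tested. Acss2 was not called without control 3, control 5 and fructose 3 (adjusted p of 0.284).

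Of 17 fat absorption genes, 3 fell and 0 rose by edgeR, while DESeq2, voom and limma each called 4 lower and 1 higher. Fabp2, the intestinal fatty acid binding protein, measured 1650, 1756, 2026, 2866 and 2420 CPM on fructose and 4106, 4161, 4260, 6690 and 3454 CPM on control, a change of -1.08 ± 0.19 (SE, adjusted p = 0.00165). Cd36, a fatty acid receptor, was at 29.6 to 49.4 CPM in the fructose libraries, against 67.2 to 189 CPM and Apoa4, an apolipoprotein of chylomicrons, at 3897 to 5415 CPM in the fructose libraries, against 5003 to 9066 CPM, with changes of -1.39 ± 0.25 and -0.71 ± 0.17. Dextrose against the same controls gave -1.25, -2.01 and -0.72, and no difference between the sugars passed (adjusted p of 0.746, 0.211 and 0.991). Without fructose 2 the call for Apoa4 was lost (adjusted p = 0.055). Apoa4 was not called without control 3, control 5 and fructose 3 (adjusted p of 0.141).

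Among 21 genes of fatty acid oxidation 3 fell and 1 rose, where 2.70% of all genes fell and 4.01% rose. Of the 21, 19 lay lower than control, with a median of -0.20. Dextrose against control gave a median of -0.39, and fructose against dextrose called 3 higher and 0 lower. Ehhadh, a peroxisomal enzyme, rose by 0.75 ± 0.10 (SE, adjusted p = 0.00017). The omega-hydroxylase Cyp4a10 fell, from 3.15 to 21.1 CPM on control to 1.54 to 3.398 CPM on fructose. Vnn1, a pantetheinase, changed by -1.16 ± 0.27 and Acaa2, a mitochondrial thiolase, by -0.55 ± 0.14. The calls for Cyp4a10, Vnn1 and Acaa2 were lost without fructose 2, Acaa2 also without fructose 1, 4 or 5 or control 1 or 2, and Cyp4a10 was at -1.21 without control 2. Scarb1, the lipoprotein receptor SR-BI, stood at 7.78, 2.83, 11.2, 9.24 and 5.54 CPM in fructose libraries 1 to 5 and 65.8, 38.4, 66.9, 54.5 and 74.1 CPM in control libraries 1 to 5, a change of -3.03 ± 0.52 (SE, adjusted p = 0.00274), and it was below dextrose as well, with an adjusted p of 0.0289. Cyp51, of cholesterol synthesis, was called at 1.01 ± 0.28, a call lost in 13 of 15 fits. Of 12 retinoid genes Rbp2, the retinol carrier of enterocytes, and Lrat, which esterifies retinol, fell, by 0.66 ± 0.13 on the log2 scale and 1.08 ± 0.14 on the log2 scale, and Isx, an intestinal repressor of carotenoid uptake, rose by 1.25 ± 0.26. The fructose minus dextrose difference was -1.21 ± 0.14 (adjusted p = 5.97e-05) for Lrat, 1.22 ± 0.26 (adjusted p = 0.0157) for Isx and 0.08 ± 0.12 (adjusted p = 0.826) for Rbp2. Acaa2, Cyp51, Isx and Rbp2 were not called without control 3, control 5 and fructose 3 (adjusted p of 0.0896, 0.286, 0.12 and 0.0513).

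Several digestive peptidases and amino acid carriers fell while sucrase rose. Of 16 brush border enzymes 5 fell and 1 rose, with a median of -0.28. Ace, angiotensin-converting enzyme and a dipeptidase of the brush border, measured 398, 490, 348, 624 and 819 CPM in fructose libraries 1 to 5 and 1722, 2181, 1947, 1691 and 2218 CPM in control libraries 1 to 5, a change of -1.86 ± 0.21 (SE, adjusted p = 2.57e-05). The highest fructose library, 5, was below every control. Enpep, glutamyl aminopeptidase, stood at 248, 283, 229, 369 and 435 CPM in fructose libraries 1 to 5 and 725, 1557, 776, 575 and 847 CPM in control libraries 1 to 5, a change of -1.52 ± 0.25, with control 2 the highest. Anpep was at 1055 to 2321 CPM in the fructose libraries, against 2809 to 4668 CPM, Naaladl1 at 143 to 212 CPM in the fructose libraries, against 261 to 465 CPM and Mep1b at 602 to 1008 CPM in the fructose libraries, against 976 to 1182 CPM, all called lower. Anpep and Mep1b were not called without control 3, control 5 and fructose 3 (adjusted p of 0.0532 and 0.13). Mep1b was not called without fructose 2 or fructose 3 (adjusted p of up to 0.0713).

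Against dextrose 4 of the 5 were lower, as were 96 of all 375 genes that fell. The difference was -1.11 ± 0.20 (adjusted p = 0.00435) for Ace and -1.02 ± 0.24 (adjusted p = 0.028) for Enpep. Sis, sucrase-isomaltase, which splits sucrose and starch products, measured 7274, 8829, 8990, 11790 and 10040 CPM in fructose libraries 1 to 5 and 4656, 5573, 5449, 4646 and 5018 CPM in control libraries 1 to 5, a rise of 0.89 ± 0.11 (SE, adjusted p = 8.99e-05); against dextrose it was 0.37 ± 0.11 (adjusted p = 0.0813). Lct, lactase, was at 1742 to 2316 CPM in the fructose libraries, against 1842 to 2152 CPM, with a log2 fold change of 0.02 ± 0.13 whose sign turned under other scalings. Of 14 peptide and amino acid carriers 7 fell and 0 rose. Slc6a19, the neutral amino acid carrier, stood at 212, 234, 309, 431 and 369 CPM on fructose and 555, 1002, 954, 606 and 796 CPM on control. Slc15a1 (PEPT1), the peptide carrier, was at 218 to 408 CPM in the fructose libraries, against 479 to 713 CPM, a change of -0.95 ± 0.17. Slc43a2, Slc7a8 and Slc16a10, which release amino acids at the basolateral side, changed by -0.78 ± 0.17, -0.89 ± 0.17 and -0.70 ± 0.14. Without control 3, control 5 and fructose 3 together, 3 brush border genes and 1 carrier were called lower. Slc15a1, Slc16a10, Slc43a2 and Slc7a8 were not called without control 3, control 5 and fructose 3 (adjusted p of 0.0513, 0.0691, 0.173 and 0.0772).

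Water and ion transport genes fell at 5 of 17 and rose at 1. Among the falls were 3 aquaporins, channels for water or glycerol. Aqp3 measured 2.21, 1.73, 2.99, 6.096 and 5.07 CPM in fructose libraries 1 to 5 and 21.3, 43.1, 28.4, 25.6 and 21.9 CPM in control libraries 1 to 5, a change of -2.96 ± 0.38 (SE, adjusted p = 0.000175). Aqp7, a glycerol channel, stood at 4.36, 2.88, 6.95, 5.63 and 5.13 CPM on fructose and 21.8, 20.5, 25.4, 24.4 and 19.7 CPM on control, a change of -2.16 ± 0.23, and Aqp1, a water channel also made by endothelium, at 17.5 to 37.5 CPM in the fructose libraries, against 59.3 to 152 CPM, a change of -1.88 ± 0.25. Fructose and control did not overlap for any of the 3, and endothelial markers ran from 5.36 to 21.95 CPM in sum with fructose and from 4.215 to 19.1 CPM on control. Aqp3 and Aqp7 were low on dextrose too, at 2.31 to 8.13 CPM and 4.68 to 10.4 CPM, and their adjusted p between the sugars was 0.915 and 0.404.

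Aqp8, also in the list, was at 1.31 to 4.76 CPM in the fructose libraries, against 1.55 to 5.85 CPM and did not pass. Slc9a3 (NHE3), the sodium-proton exchanger of the brush border, rose by 1.21 ± 0.31 (SE, adjusted p = 0.0267). Car2, carbonic anhydrase 2, fell by 0.99 ± 0.12 on the log2 scale, from 63.03 to 70.4 CPM on control to 28.02 to 38.7 CPM on fructose. Car2 was also below dextrose, with a difference of -0.83 ± 0.12 (adjusted p = 0.000414). The bicarbonate carrier Slc4a7 changed by -1.16 ± 0.27. Guca2b, uroguanylin, a peptide that drives chloride secretion, was called lower at 1442 to 2393 CPM in the fructose libraries, against 2057 to 3872 CPM, a call lost in 5 of 15 fits without 1 library. Guca2b and Slc9a3 were not called without control 3, control 5 and fructose 3 (adjusted p of 0.147 and 0.286). Slc9a3 was not called in 6 of 15 fits without 1 library (adjusted p of up to 0.0695).

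Slc16a5, of the monocarboxylate carrier family, fell by 0.79 ± 0.15 on the log2 scale. A pair of sodium-coupled carriers changed in opposite directions. Slc5a8 (SMCT1) measured 5.24, 14.4, 4.01, 10.2 and 16.9 CPM in fructose libraries 1 to 5 and 0, 0.238, 0.431, 0.4502 and 0.185 CPM in control libraries 1 to 5, and Slc5a12 (SMCT2) measured 0.607, 2.65, 1.02, 4.22 and 9.24 CPM in fructose libraries 1 to 5 and 41.1, 158, 66.3, 107 and 38.4 CPM in control libraries 1 to 5. The groups did not overlap in either, and Slc5a12 changed by -4.55 ± 0.70 (SE, adjusted p = 0.00131), or by -5.31 without fructose 5. Slc5a8 was above dextrose by 5.88 ± 0.62 (adjusted p = 3.6e-05), while Slc5a12 was low on both sugars, with 2.74 to 14.8 CPM on dextrose and a difference between the sugars of -1.13 ± 0.69 (adjusted p = 0.477). Cubn, the receptor for vitamin B12 with intrinsic factor, measured 5.13, 3.81, 6.25, 10.3 and 8.29 CPM in fructose libraries 1 to 5 and 71.4, 73.2, 84.3, 123 and 104 CPM in control libraries 1 to 5, and its partner Amn was at 99.8 to 157 CPM in the fructose libraries, against 158 to 231 CPM; both fell and both were below dextrose, with differences of -3.04 ± 0.53 (adjusted p = 0.0045) and -0.48 ± 0.13 (adjusted p = 0.0438). Slc16a5 was not called without control 3, control 5 and fructose 3 (adjusted p of 0.074).

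Slc34a2, the sodium-phosphate carrier, stood at 258, 501, 236, 323 and 268 CPM in fructose libraries 1 to 5 and 24.8, 1.61, 13.1, 56.8 and 3.34 CPM in control libraries 1 to 5. The controls spread widely, controls 2 and 5 lowest, and all lay below the fructose libraries; the change was 3.99 ± 0.73, or 4.90 without control 4, and against dextrose it was 2.60 ± 0.68 (adjusted p = 0.0509). Atp2b1, the calcium pump of the basolateral side, rose by 0.55 ± 0.11. Of 9 zinc, copper and magnesium genes Slc30a1, a zinc exporter, rose by 0.77 ± 0.14 and Atp7b, a copper pump, was called at 0.32 ± 0.09, a call lost in 9 of 15 fits. The biotin and pantothenate carrier Slc5a6 changed by -0.77 ± 0.15 and the riboflavin carrier Slc52a3 by 0.94 ± 0.21. Atp7b, Slc30a1, Slc52a3 and Slc5a6 were not called without control 3, control 5 and fructose 3 (adjusted p of 0.25, 0.0597, 0.116 and 0.088).

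**Figure D4:**
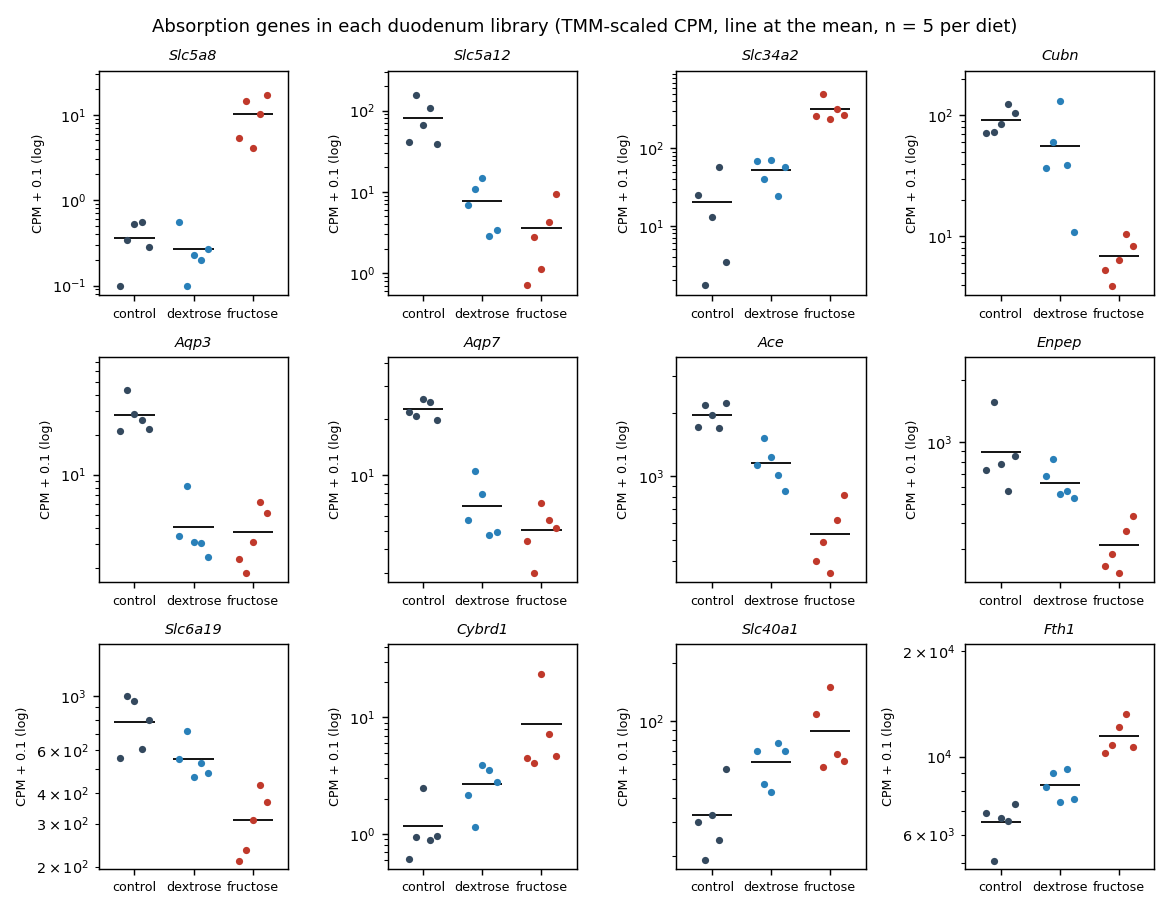
Panels give 12 absorption genes as TMM-scaled CPM plus 0.1 on log axes, 1 point per library and a line at the mean of 5 libraries per diet. Slc5a8, Slc34a2, Cybrd1, Slc40a1 and Fth1 lie higher on fructose than on control and the other 7 lower; on dextrose Aqp3, Aqp7 and Slc5a12 lie near the fructose values.

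Iron genes rose at 3 of 10 and fell at 1. Cybrd1, the duodenal ferric reductase, stood at 4.36, 3.98, 23.5, 7.17 and 4.53 CPM in fructose libraries 1 to 5 and 0.503, 0.833, 2.403, 0.788 and 0.865 CPM in control libraries 1 to 5, a change of 3.01 ± 0.57 (SE, adjusted p = 0.00416). Fructose 3 and control 3, the libraries with acinar transcripts, were each the highest of their diet, and without fructose 3 the change was 2.21; with voom weights the call was lost (adjusted p = 0.0629). Slc40a1, the iron exporter ferroportin, measured 108, 57.7, 149, 67.3 and 61.7 CPM on fructose and 29.9, 18.98, 32.7, 24.2 and 56.2 CPM on control, a rise of 1.46 ± 0.32 (SE, adjusted p = 0.0115). Fth1, the ferritin heavy chain, was among the largest gains in RNA amount, at 10260, 10800, 12180, 13250 and 10630 CPM in fructose libraries 1 to 5 and 6903, 5037, 6701, 6547 and 7326 CPM in control libraries 1 to 5, a rise of 0.81 ± 0.12 (SE, adjusted p = 0.000225). Ftl1, the light chain, was called lower at -0.36 ± 0.10, a call lost in 11 of 15 fits without 1 library. Ftl1 was not called without control 3, control 5 and fructose 3 (adjusted p of 0.12).

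Fth1 was above dextrose by 0.46 ± 0.11 (adjusted p = 0.0289). For Cybrd1 and Slc40a1 the fructose minus dextrose differences, 1.74 ± 0.53 (adjusted p = 0.0873) and 0.54 ± 0.31 (adjusted p = 0.439), did not pass. The iron importer Slc11a2 was at 69.9 to 101 CPM in the fructose libraries, against 60.8 to 88.2 CPM and Tfrc, the transferrin receptor, at 90.5 to 129 CPM in the fructose libraries, against 58.4 to 115 CPM; neither passed. Cybrd1 and Slc40a1 also serve as markers of the proximal intestine. All 5 genes of that marker list lay higher on fructose, with a median of 0.35. Their sum was 374 to 551 CPM on fructose against 259 to 367 CPM on control, with no overlap. On dextrose it was 379 to 422 CPM. That sum includes the called genes Cybrd1 and Slc40a1, so its lack of overlap is not separate from their rise. The 3 that are not iron genes did not pass, the transcription factors Pdx1, Gata4 and Onecut2 with log2 fold changes of 0.28 ± 0.26, 0.11 ± 0.10 and 0.35 ± 0.22. Markers of the distal intestine, near 0 CPM, summed to 0.807 to 1.87 CPM on fructose, 0.185 to 0.803 CPM on control and 0.0563 to 0.686 CPM on dextrose. Their 1 tested gene lay higher than control by 1.21, with 0 calls by edgeR, DESeq2, voom or limma. Whether the stretch of gut sampled plays a part was not tested.

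Part of the detoxification genes fell. Of 21 conjugation and export genes 7 fell and 0 rose by edgeR, with a median of -0.33, while DESeq2 and voom each called 1 higher. Gstm1, a glutathione transferase, measured 54.2, 46.9, 46.4, 30.1 and 47.8 CPM in fructose libraries 1 to 5 and 431, 257, 90.01, 105 and 108 CPM in control libraries 1 to 5; controls 1 and 2 were the highest and all controls were above all fructose libraries. Gstm3 was at 128 to 193 CPM in the fructose libraries, against 208 to 487 CPM, and Abcc2, an exporter of conjugates, at 181 to 420 CPM in the fructose libraries, against 442 to 576 CPM, a call lost in 5 of 15 fits without 1 library. Gsta3 was at 3.62 to 6.75 CPM in the fructose libraries, against 10.2 to 60.4 CPM and Cbr3, a carbonyl reductase, at 0.607 to 1.34 CPM in the fructose libraries, against 2.78 to 23.4 CPM, both with control 1 far above the rest. Without control 1 their changes were -1.38 and -2.23, in place of -2.09 and -3.26. Gclc and Gclm, the subunits of glutamate-cysteine ligase, fell by 0.97 ± 0.15 on the log2 scale and 0.39 ± 0.10 on the log2 scale, while Nfe2l2, the gene of NRF2, rose by 0.55 ± 0.12. Abcc2, Gclm and Nfe2l2 were not called without control 3, control 5 and fructose 3 (adjusted p of 0.28, 0.126 and 0.128).

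On dextrose 7 of the 21 were below fructose by test, where 2.17% of all genes were. Over all tested genes, the 6 that lay below control and above dextrose by test were Nqo1, Por, Gsta3, Ugt2b5, Mgst2 and Mettl7a1. The first 5 act in oxidation or conjugation of foreign compounds. Their means on control, fructose and dextrose were 41.7, 26.5 and 15.3 CPM for Nqo1 and 66.0, 34.8 and 7.54 CPM for Ugt2b5. The call for Nqo1 was lost without fructose 2, 4 or 5 or control 1 or 2. The UGT and GST families hold near copies whose reads the counting could split. Por and Ugt2b5 were not called without control 3, control 5 and fructose 3 (adjusted p of 0.212 and 0.0698). Mettl7a1 was not called without fructose 4, fructose 5 or control 2 (adjusted p of up to 0.0586). Por was not called in 9 of 15 fits without 1 library (adjusted p of up to 0.115). Ugt2b5 was not called in 9 of 15 fits without 1 library (adjusted p of up to 0.0996).

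Cbr1, another carbonyl reductase, fell by 0.62 ± 0.13 on the log2 scale. Other enzymes of this kind rose. Cyp4f14, a fatty acid hydroxylase, rose by 0.66 ± 0.10. Ephx1, microsomal epoxide hydrolase, measured 192, 155, 187, 198 and 174 CPM on fructose and 110, 52.2, 31.9, 19.7 and 31.2 CPM on control, a rise of 1.89 ± 0.35 (SE, adjusted p = 0.0042); control 1 stood above the other controls, and against dextrose the difference was 3.65 ± 0.38 (adjusted p = 5.97e-05). Cyp3a44 rose by 3.32 ± 0.20, from 4.696 to 10.8 CPM on control to 52.9 to 98.7 CPM on fructose, and dextrose against control gave 2.45. The esterases Ces2g and Ces1d rose, by 0.81 ± 0.12 and 1.20 ± 0.21, while Ces2a and Ces2c fell, by 0.56 ± 0.13 on the log2 scale and 0.76 ± 0.17 on the log2 scale. Cyp3a and Ces genes lie among near copies. Ces1d and Ephx1 were not called without control 3, control 5 and fructose 3 (adjusted p of 0.0608 and 0.0851).

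Of 13 nitrogen genes 2 fell and 1 rose, where 2.70% of all genes fell and 4.01% rose. Glud1, glutamate dehydrogenase, measured 137, 158, 141, 152 and 159 CPM in fructose libraries 1 to 5 and 254, 400, 324, 267 and 322 CPM in control libraries 1 to 5, a change of -1.07 ± 0.14 (SE, adjusted p = 0.000105), and Arg2, mitochondrial arginase, was at 182 to 252 CPM in the fructose libraries, against 345 to 378 CPM, a change of -0.70 ± 0.12. Aldh18a1, which makes the proline precursor, was called at 0.77 ± 0.21, a call lost in 8 of 15 fits. For Glud1 and Arg2 no difference between the sugars passed (adjusted p of 0.303 and 0.676). Cth, the cystathionine lyase that makes cysteine, rose by 0.64 ± 0.09 and was above dextrose by 0.90 ± 0.09 (adjusted p = 1.57e-05). Abcg2, an exporter of urate, rose by 0.84 ± 0.10 (SE, adjusted p = 3.75e-05), with 195 to 239 CPM in the fructose libraries, against 97.5 to 143 CPM, and was above dextrose by 0.57 ± 0.10 (adjusted p = 0.00236). Pnp, purine nucleoside phosphorylase, rose by 0.43 ± 0.10. Xdh, xanthine dehydrogenase, which makes urate, was at 586 to 871 CPM in the fructose libraries, against 702 to 1096 CPM and did not pass. Aldh18a1 and Pnp were not called without control 3, control 5 and fructose 3 (adjusted p of 0.326 and 0.17).

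Bile acid genes rose at 2 of 5. Nr0b2 (SHP), a repressor induced by the bile acid receptor, rose by 1.02 ± 0.20 (SE, adjusted p = 0.00465), with 12.1 to 20.9 CPM in the fructose libraries, against 5.06 to 10.7 CPM, and was above dextrose by 1.79 ± 0.21 (adjusted p = 5.97e-05). Nr1h4, the receptor FXR itself, was called at 0.82 ± 0.23, a call lost in 9 of 15 fits without 1 library. Nr1h4 was not called without control 3, control 5 and fructose 3 (adjusted p of 0.273).

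Of 16 tested genes of the circadian clock 3 rose and 4 fell. Arntl (BMAL1), the positive limb, rose by 1.17 ± 0.27 (SE, adjusted p = 0.0143), with 32.5 to 57.8 CPM in the fructose libraries, against 14.8 to 28.98 CPM. The repressors Cry1 and Bhlhe40 rose by 1.10 ± 0.17 and 0.98 ± 0.12, and Cry2 and Per3 changed by -1.28 ± 0.19 and -1.18 ± 0.31. Tef and Dbp, output factors of the same family, fell: Tef was at 10.04 to 27.1 CPM in the fructose libraries, against 39.3 to 91.02 CPM and Dbp measured 1.43, 1.15, 1.55, 1.47 and 5.66 CPM on fructose and 10.8, 37.2, 39.2, 9.96 and 64.9 CPM on control. Fructose 5 was the highest fructose library for Dbp and lay below the lowest control. The call for Dbp was lost without fructose 4 (adjusted p = 0.0521), and without fructose 5 the change was -4.52. The time of day of sampling is not given in the labels, and its part was not tested. Arntl, Dbp, Per3 and Tef were not called without control 3, control 5 and fructose 3 (adjusted p of 0.216, 0.197, 0.298 and 0.132). Per3 was not called in 7 of 15 fits without 1 library (adjusted p of up to 0.0853).

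Fkbp5, a gene induced by glucocorticoids, was called lower although the groups overlapped. It measured 11.9, 6.57, 8.71, 25.9 and 7.87 CPM in fructose libraries 1 to 5 and 66.1, 351, 45.9, 5.18 and 126 CPM in control libraries 1 to 5. Control 2 was the highest and control 4 lower than every fructose library; the call was lost in 6 of 15 fits without 1 library, and the change was -2.32 without control 2. By edgeR the other 8 genes of the glucocorticoid list, and all 14 immediate early, 15 nuclear receptor and 13 endoplasmic reticulum stress genes, did not pass. At an unadjusted p under 0.05 the immediate early list had 1 gene higher and the nuclear receptors 1 higher and 3 lower. The stress list had 4 higher and 1 lower, and the glucocorticoid list 2 lower, Fkbp5 counted. The share of all genes at that cut is not given, so these counts cannot show a change of a list. DESeq2 called 2 glucocorticoid genes lower and 1 immediate early gene and 1 nuclear receptor higher. Voom called 1 nuclear receptor higher and 1 stress gene lower, and limma on log2(FPKM + 1) 1 of each lower. Fkbp5 was not called without control 3, control 5 and fructose 3 (adjusted p of 0.131).

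Interferon-stimulated genes rose at 17 of 28, and 0 fell, with a median log2 fold change of 0.79. Ifit1, which binds viral RNA, measured 82.2, 125, 141, 141 and 156 CPM in fructose libraries 1 to 5 and 44.9, 55.4, 43.2, 67.4 and 60.1 CPM in control libraries 1 to 5, a rise of 1.25 ± 0.17 (SE, adjusted p = 0.000177). Fructose 1 was the lowest fructose library and above control 4, the highest control. Bst2 (tetherin), which holds virus particles at the cell surface, stood at 27.6, 29.5, 22.5, 30.5 and 28.97 CPM on fructose and 12.4, 14.4, 11.4, 15.1 and 12.3 CPM on control, a rise of 1.08 ± 0.12. Ifi44 was at 11.3 to 30.6 CPM in the fructose libraries, against 2.22 to 4.700 CPM and Ifit2 at 5.96 to 11.98 CPM in the fructose libraries, against 2.14 to 4.11 CPM, rises of 2.51 ± 0.30 and 1.63 ± 0.27. Isg15, a ubiquitin-like modifier, was at 37.1 to 89.8 CPM in the fructose libraries, against 26.9 to 39.8 CPM, a rise of 1.11 ± 0.23, and the groups overlapped. In 10 of the 28 genes the groups did not overlap, where 4.15% of all genes had every fructose library above every control. Isg15 was not called without control 3, control 5 and fructose 3 (adjusted p of 0.13).

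Transcription factors of the response did not pass by edgeR: Stat2, Irf7 and Irf9 had log2 fold changes of 0.42, 0.37 and 0.21. Stat2 and Irf7 passed with voom weights and without control 4. No difference between the sugars passed by edgeR in any of the 28, where 2 were higher and 1 lower than dextrose at an unadjusted p under 0.05, DESeq2 called 1 higher and voom 1 each way. On dextrose the list had a median of 0.72 over the same controls. Immune cell genes were measured beside these, and their part in the result was not tested. T and NK cell genes on fructose gave 97.4 to 214 CPM in sum against 149 to 415 CPM, with 11 of 11 below control (median -0.57) and 0 called by edgeR. At an unadjusted p under 0.05 there were 5 lower, and DESeq2 called 2 lower and limma on log2(FPKM + 1) 1. Macrophage and dendritic cell genes ran from 31.2 to 99.9 CPM in sum with fructose and from 33.97 to 170 CPM on control, with 8 of 8 lower and a median of -0.42. All 7 MHC class II genes lay lower, with a median of -0.36, and of 10 MHC class I genes 7 lay lower, with a median of -0.04. Neither these nor the macrophage list had a call by edgeR, DESeq2, voom or limma, and at an unadjusted p under 0.05 1 class II gene was lower. In bulk tissue fewer cells of a type and less RNA per cell cannot be told apart. Without control 3, control 5 and fructose 3, 6 of the 28 were called, while the median of the list was 0.82.

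The windows of 3 of these genes are shown because each holds the core of the interferon-stimulated response element, GAAA followed after 2 bases of any kind by a further GAAA on either strand, in capitals; matches may overlap. They are Ifit1 at chr19:34640639-34640888 (plus strand) with 2 matches, Isg15 at chr4:156200819-156201068 (minus strand) with 3 and Bst2 at chr8:71537473-71537722 (minus strand) with 2 (RefSeq, GRCm38.p6).
Ifit1: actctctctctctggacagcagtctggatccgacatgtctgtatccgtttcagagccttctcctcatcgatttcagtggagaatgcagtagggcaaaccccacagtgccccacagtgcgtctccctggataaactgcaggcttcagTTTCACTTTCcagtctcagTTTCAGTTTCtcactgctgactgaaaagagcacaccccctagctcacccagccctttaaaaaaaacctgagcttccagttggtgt
Isg15: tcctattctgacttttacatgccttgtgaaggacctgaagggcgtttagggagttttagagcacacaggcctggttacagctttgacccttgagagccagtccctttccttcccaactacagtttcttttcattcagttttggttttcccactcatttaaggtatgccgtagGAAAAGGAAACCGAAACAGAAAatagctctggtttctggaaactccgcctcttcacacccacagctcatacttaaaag
Bst2: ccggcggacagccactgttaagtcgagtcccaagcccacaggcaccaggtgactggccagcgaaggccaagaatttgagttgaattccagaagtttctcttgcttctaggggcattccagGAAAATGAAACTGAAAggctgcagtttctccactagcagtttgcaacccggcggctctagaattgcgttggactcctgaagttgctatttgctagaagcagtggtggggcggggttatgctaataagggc
Of the 17 genes that rose 12 have a window, and 8 of them hold this core: Ifit1, Ifit3, Isg15, Bst2, Oas1a, Rsad2, Gbp3 and Trim30a. Per window the core was in 53.3% of the 15 windows of these genes, in 2.73% of those of all genes tested and in 2.98% of all windows of this length. Among 32 windows of the sugar genes that rose 0 hold it, too few windows at such a share to show a difference.

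**Figure D5:**
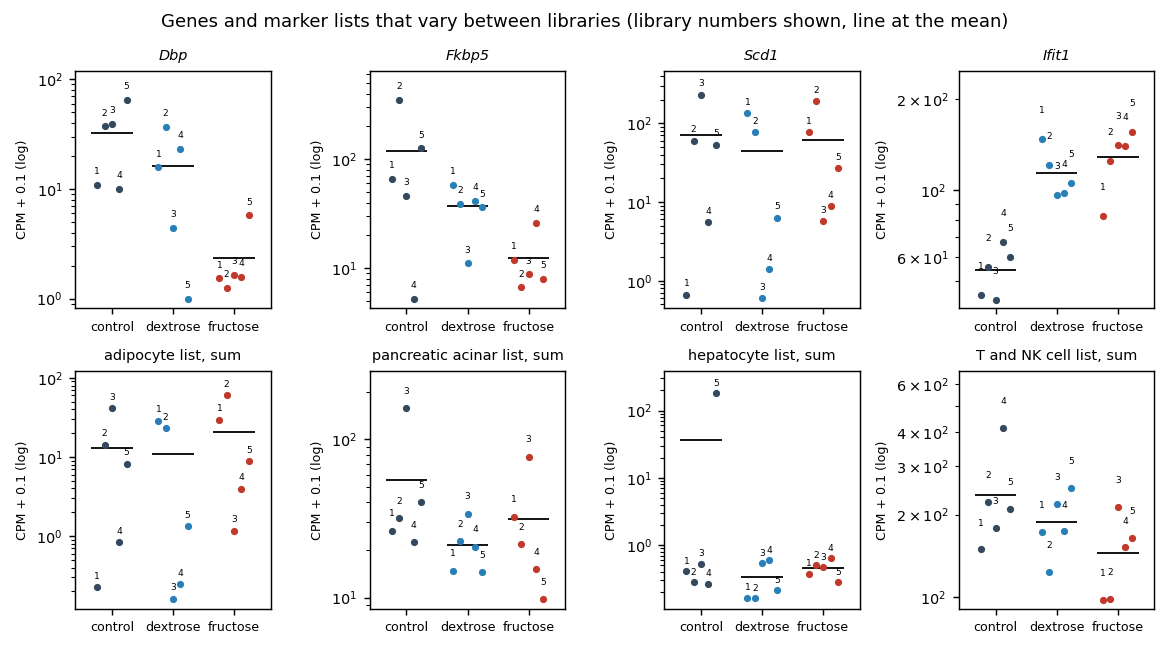
Panels give TMM-scaled CPM plus 0.1 on log axes for 4 genes (top) and the sums of 4 marker lists (bottom), with library numbers beside the points and a line at the mean of 5 libraries per diet. Control 2 stands out for Fkbp5, control 3 for Scd1 and acinar genes and control 5 for hepatocyte genes, while the Ifit1 panel has no control above 67.4 CPM and no fructose library below 82.2 CPM.

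Among epithelial cell types few genes moved. Reg3a, an antimicrobial lectin, rose by 0.81 ± 0.12 (SE, adjusted p = 0.000348), with 302 to 373 CPM in the fructose libraries, against 168 to 265 CPM, while the median over the 10 Paneth genes was -0.44. Trpm5, the taste channel of tuft cells, rose by 0.94 ± 0.19 as 1 of 6 tuft genes; the other 5 lay lower without a call by edgeR, DESeq2, voom or limma (2 at an unadjusted p under 0.05), and the median was -0.18. The tight junction gene Cldn23 rose by 0.60 ± 0.12. Of 6 villus tip markers Egfr rose, by 0.61 ± 0.13, and Apoa4, given with the fat absorption genes, fell, with a median of -0.18. The sum of the 6 was 5800 to 7906 CPM on fructose (median 6882), against 6816 to 12110 CPM on control (median 11430) and 5697 to 7831 CPM on dextrose. Apoa4 alone made up most of the mean sum on fructose and on control. Of the 6 markers 3 lay higher and 3 lower, so the sum does not measure the number of villus tip cells. Goblet, enteroendocrine, stem cell and cell cycle lists gave 0 calls by edgeR. At an unadjusted p under 0.05 there were 2 goblet genes higher and 1 enteroendocrine gene lower, and DESeq2 called 2 goblet genes higher and voom 1. Stem and crypt genes ranged from 109 CPM in fructose 5 to 389 CPM in fructose 1 and from 144 to 270 CPM over the controls. Apoa4, Cldn23, Egfr and Trpm5 were not called without control 3, control 5 and fructose 3 (adjusted p of 0.141, 0.115, 0.0834 and 0.0633). Apoa4 was not called without fructose 2 (adjusted p of up to 0.055).

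Nuclear genes of oxidative phosphorylation gave 0 calls of 20 by edgeR (6 higher at an unadjusted p under 0.05), while DESeq2 called 4 higher and voom 3. All 20 had a mean above control, by a median of 0.16, and on log2(FPKM + 1) 18 of 20 lay higher. In 6 of the 20 every fructose library was above every control, where 4.15% of all genes were so. Their sum was 13250 to 14110 CPM with fructose, above the 10610 to 12630 CPM of the controls. Cytosolic ribosomal protein genes gave 0 calls of 24 and genes of the mitochondrial genome 0 of 10, by edgeR, DESeq2, voom and limma and at an unadjusted p under 0.05.

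Several of the steepest changes lay outside the lists. Itpr1, the inositol trisphosphate receptor that releases calcium from the endoplasmic reticulum, measured 352, 425, 382, 419 and 381 CPM in fructose libraries 1 to 5 and 53.7, 25.7, 50.5, 53.2 and 24.8 CPM in control libraries 1 to 5, a rise of 3.23 ± 0.32 (SE, adjusted p = 1.35e-05). The fructose libraries lay close together and far above every control. Sprr1a, a cornified envelope protein induced in stressed epithelium, stood at 15.8 to 20.6 CPM in the fructose libraries, against 0.773 to 2.59 CPM, and Adad2, an RNA-binding protein known from the testis, at 8.76 to 14.1 CPM in the fructose libraries, against 0.309 to 1.41 CPM. Pga5, a pepsinogen, was at 1.55 to 2.68 CPM in the fructose libraries, against 0.0616 to 0.238 CPM and Cfap61, a cilia protein, at 1.67 to 3.81 CPM in the fructose libraries, against 0 to 0.378 CPM. All 5 were also higher than on dextrose, Itpr1 by 2.31 ± 0.30 (adjusted p = 0.000346), Sprr1a by 3.19 ± 0.34 (adjusted p = 3.29e-05), Adad2 by 3.58 ± 0.34 (adjusted p = 8.69e-06), Pga5 by 2.06 ± 0.33 (adjusted p = 0.00115) and Cfap61 by 2.11 ± 0.39 (adjusted p = 0.00435).

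Falls of this kind included Slc37a2, a sugar phosphate exchanger, at 0.807 to 6.63 CPM in the fructose libraries, against 8.804 to 31.1 CPM, and below dextrose with a difference of -2.01 ± 0.46 (adjusted p = 0.0233), and Ppm1n, a protein phosphatase, at 0.804 to 1.97 CPM in the fructose libraries, against 2.201 to 9.74 CPM. Npl, which breaks down sialic acid, was at 0.827 to 3.28 CPM in the fructose libraries, against 3.52 to 20.9 CPM; its call was lost without fructose 1, 2, 3 or 4, and without control 4 the change was -1.40 in place of -2.12. Gsdmc2, a gasdermin, was called higher at 0.6699 to 3.92 CPM in the fructose libraries, against 0.0595 to 0.844 CPM, with overlap, and Sowahd lower at 0 to 0.268 CPM in the fructose libraries, against 0.315 to 0.803 CPM; these calls were lost in 7 and 5 of 15 fits without 1 library. Gsdmc2, Npl and Sowahd were not called without control 3, control 5 and fructose 3 (adjusted p of 0.189, 0.0772 and 0.222).

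Some genes were near absent on control. Krtap3-1, a hair keratin-associated protein, had 11 to 22 counts in each fructose library and 1 count over all 5 controls. The noncoding RNA Gm13093, the neighbour of Slc2a5 on the opposite strand in the reference annotation, had 18 to 31 counts on fructose and 1 over the controls. Gm45017, another noncoding RNA, measured 2.43, 4.497, 4.49, 6.57 and 3.46 CPM on fructose and 0, 0, 0, 0 and 0 CPM on control, at least 116-fold higher when control is set to the limit of 3 counts over the group, and 0.0624 to 0.593 CPM on dextrose. 5033403H07Rik measured 2.87, 5.02, 2.99, 4.42 and 3.398 CPM on fructose and 0.0629, 0.119, 0.123, 0 and 0 CPM on control. The last 3 were named after their values were seen, and libraries that do not mark strand cannot tell Gm13093 from reads of Slc2a5 that reach upstream.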

How the data were processed

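Poly-A selected RNA from duodenum and liver was sequenced, with 5 libraries per tissue and diet; the 15 duodenum libraries were used here. The authors deposited whole-number counts per gene and FPKM per gene for each library. Bowtie2 2.2.3, TopHat2 2.0.12, HTSeq 0.6.1 and DESeq 1.18.0 are named in the submitters' processing notes, with no role or order. Build and annotation are not given in the sources used here. Per the labels' protocols the library kit was NEBNext Ultra RNA, which does not mark strand, so overlapping genes cannot be told apart.

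Deposited counts were filtered (filterByExpr), TMM-scaled and tested with edgeR 4.0.16 (robust quasi-likelihood F test, R 4.3.3) over 15 libraries in 3 diet groups, with Benjamini-Hochberg adjustment at 0.05; SE is the log2 fold change divided by the root of F. The script was tested on simulated data. Deposited FPKM was used for levels between genes and, as log2(FPKM + 1) or log2(FPKM + 0.1), in limma 3.58.1. DESeq2 1.42.0, other scalings, filters and left-out libraries were alternatives. Total counts per duodenum library ran from 15473405 to 19850935, and floors cover counting error only.

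The comparison, its gene lists and the genes named were chosen with earlier results of these data known. Named genes were the 12 largest rises and falls at 1 CPM or more without overlap, the 6 largest CPM changes each way, the 6 smallest p, up to 4 called members per list, a set of sugar and absorption genes fixed by name, the 4 highest called genes each way with at most 3 counts in every library of the other diet, and the 4 largest called differences each way from dextrose. Predicted genes were left out of that rule, and some genes are not reported here and were left out of the lists. Other members of the lists, and the genes lying between control and dextrose, were named after their values were seen. Near copies in the Slc5a4, Cyp3a, Cyp4a, Ugt2b, Gst, Ces and Ifit families are uncertain, since the counting could split their reads.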

Additional observations from a re-analysis of the deposited data

Results flagged for a closer look

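Each library was compared with the other 4 of its diet, and those whose gap to the nearest exceeded the 95% critical value of Dixon's test on log2(CPM + 1) are given here. Over 374 groups 20 were found, where chance gives about 1 in 20 groups. Cbr3 in fructose 3 stood at 1.34 CPM, against 0.607 to 0.715 CPM in the other 4. Cbr3 in control 1 stood at 23.4 CPM, against 2.78 to 5.07 CPM in the other 4. Cry1 in control 4 stood at 13.2 CPM, against 15.9 to 17.2 CPM in the other 4. Cybrd1 in control 3 stood at 2.40 CPM, against 0.503 to 0.865 CPM in the other 4. Dbp in fructose 5 stood at 5.66 CPM, against 1.15 to 1.55 CPM in the other 4. Gata4 in control 1 stood at 258 CPM, against 188 to 200 CPM in the other 4. Gm13093 in control 5 stood at 0.0618 CPM, against 0 in the other 4. Gstm1 in fructose 4 stood at 30.1 CPM, against 46.4 to 54.2 CPM in the other 4. H6pd in control 2 stood at 22.1 CPM, against 11.3 to 12.1 CPM in the other 4. Khk in control 1 stood at 1349 CPM, against 1045 to 1108 CPM in the other 4. Krtap3-1 in control 5 stood at 0.0618 CPM, against 0 in the other 4. Mep1b in control 5 stood at 976 CPM, against 1128 to 1182 CPM in the other 4. Ppp1r3g in control 2 stood at 0.119 CPM, against 0.370 to 0.450 CPM in the other 4. Slc16a1 in control 4 stood at 57.2 CPM, against 85.8 to 95.5 CPM in the other 4. Slc37a2 in control 5 stood at 31.1 CPM, against 8.80 to 12.7 CPM in the other 4. Slc52a3 in fructose 3 stood at 62.3 CPM, against 78.6 to 85.5 CPM in the other 4. Slc52a3 in control 2 stood at 64.0 CPM, against 30.4 to 37.5 CPM in the other 4. Ugt2b5 in control 1 stood at 113 CPM, against 48.1 to 57.2 CPM in the other 4. The erythrocyte markers summed to 21.7 CPM in fructose 2, against 5.01 to 7.78 CPM in the other 4. The hepatocyte markers summed to 182 CPM in control 5, against 0.169 to 0.431 CPM in the other 4. The single counts of Gm13093 and Krtap3-1 in control 5 each stand for 1 read in that library. No further test was run on these libraries, and the cause was not tested.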

How the results depend on the processing

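Against control, 932 (557 higher, 375 lower) genes were called; against dextrose, 506 (301 higher, 205 lower). Requiring more than 1.5-fold left 133 (95 higher, 38 lower) and 64 (57 higher, 7 lower). With voom weights the counts were 1466 (866 higher, 600 lower) and 1513 (770 higher, 743 lower), and with DESeq2 1258 (741 higher, 517 lower) and 826 (496 higher, 330 lower). Limma on log2(FPKM + 1) gave 641 and 395 lower, on log2(FPKM + 0.1) 659 and 400, and upper-quartile factors 508 and 329. Leaving out 1 library gave 623 to 1008 genes against control (399 to 611 higher, 224 to 415 lower) and 310 to 574 against dextrose (210 to 369 higher, 97 to 208 lower), the fewest in all without fructose 2. Without control 3, control 5 and fructose 3 the counts were 329 (213 higher, 116 lower) and 274 (189 higher, 85 lower). The labels do not say whether replicate numbers pair the libraries. Fructose and control libraries of the same number correlated at -0.072, 0.267, 0.136, 0.209 and -0.171, and 1 of 5 matched best with its own number. So few values cannot exclude a pairing. With the replicate block 842 (511 higher, 331 lower) and 431 (272 higher, 159 lower) genes were called; 16 of the named called genes lost their call, Pck1, Arntl, Dbp and Cyp4a10 among them, and Mlxipl gained one. Of 135 named called genes, 0 turned sign in any alternative run, 108 were called in all 15 fits without 1 library and 49 in every alternative. Genes below the threshold turned sign in places. Aqp8, reported at -0.30, was 0.042 (voom). Fbp2, reported at -0.04, was -0.087 to 0.014 over fits without 1 library. Glyctk, reported at 0.08, was -0.047 to 0.176 over fits without 1 library. Lct, reported at 0.02, was -0.017 (upper quartile), -0.051 (log2(FPKM + 1)), -0.051 (log2(FPKM + 0.1)), -0.008 (voom), -0.031 to 0.069 over fits without 1 library. Scd1, reported at -0.18, was 0.06 (log2(FPKM + 1)), 0.39 (log2(FPKM + 0.1)), 1.782 (without those 3), -1.249 to 1.048 over fits without 1 library. Slc2a2, reported at -0.05, was 0.174 (without those 3), -0.178 to 0.06 over fits without 1 library. Slc5a1, reported at 0.04, was -0.003 (upper quartile), -0.009 (log2(FPKM + 1)), -0.009 (log2(FPKM + 0.1)), -0.13 (voom), -0.078 to 0.15 over fits without 1 library. Srebf1, reported at -0.13, was 0.015 (voom). Calls rest on 5 libraries per diet and totals that differed little between them, and genes near 0 counts are limited by counting error. The cause of these shifts was not tested.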
